A study of Mus musculus with 6 samples.

Results

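The genes described are 40 mitosis and spindle genes, from the cyclins that start mitosis to the proteins that part the daughter cells. They were chosen by name, and each was read on an Affymetrix mouse GeneChip through probe sets whose platform annotation names that gene alone. Such probe sets were found for 39 of the 40 genes, out of 18194 genes named in this way, and numbered 88 of the 45101 on the array; Ccnb1 (cyclin B1) was not analysed here. Where a gene had several probe sets, the brightest one, by its mean over the 6 arrays, was read. Values are log2 expression levels, in which a difference of 1 is a doubling.

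The series compares the jejunum, the stretch of small intestine between duodenum and ileum, of 3 wild type mice (numbered 1, 3 and 4) with that of 3 mice lacking both Ifrd1 (TIS7) and Ifrd2 (SKMc15), numbered 1, 2 and 3. Each mouse was measured on 1 array. All 6 were C57BL/6 males of 7 to 10 weeks, housed singly. They were on a high saturated fat diet with 42% of energy from milk fat and 0.2% from cholesterol. The labels give 3 to 8 weeks on that diet, and tissue taken after 3 weeks of it. No group on ordinary chow was analysed here. The title names intestinal lipid absorption and obesity as its subject, so the comparison below asks how mitotic transcripts differ when both genes are missing on this diet. How the knockout alleles were made is not given in the sources used here. The targeted transcripts matched the labels: Ifrd2 lay between 8.20 and 8.61 in wild type and between 2.59 and 2.74 in double knockout mice, and Ifrd1 between 9.84 and 10.00 against 4.80 to 6.27. Enterocyte markers were bright on every array (list mean 12.98 to 13.20), as in small intestine. They do not tell jejunum from its neighbouring stretches, and the labelled region was not checked here.

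In the intestinal epithelium, cells divide in the crypts, at the base of the villi, where stem cells give rise to rapidly cycling progenitors, and the villus cells no longer divide. Mitosis is driven by cyclin-dependent kinase 1 with its cyclins, monitored by the spindle checkpoint, and ended when the anaphase-promoting complex, a ubiquitin ligase, marks cyclins and securin for destruction. Most of the genes involved are transcribed mainly late in the cell cycle, so their RNA in a piece of tissue comes largely from cells in that phase. In whole tissue, more cells of a type and more RNA per cell cannot be told apart.

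Mitosis genes were higher in double knockout jejunum. Of 37 genes bright enough to test, 14 rose and 0 fell (limma adjusted p of at most 0.05 over all 18013 probe sets tested). The 14 were Ttk, Plk1, Bub1, Ube2c, Hmmr, Racgap1, Mad2l1, Ccna2, Cdk1, Cks1b, Birc5, Top2a, Kif4 and Cdc20. Among all probe sets tested, 2.54% were called higher and 1.93% lower. All 37 fold changes were positive, from 0.02 for Kif23 to 1.22 for Ttk on the log2 scale, with a median of 0.53 beside 0.03 over all probe sets tested. Every double knockout mouse lay above every wild type mouse for 32 of the 37, against 19.5% of all probe sets tested. At an unadjusted p under 0.05 the limma fit gave 33 higher and 0 lower. The share of all probe sets under that p is not given, here or for the lists below. It was not small: a limma p of 0.0433, that of the fibroblast marker Col3a1, went with an adjusted p of 0.171. The remaining pair with a probe set, Cdc25c and Ndc80, was too dim to test; their values are given with their classes below. The filter asked for a log2 value above 4 on at least 3 arrays, and 36 of the 37 passed it on all 6, so it did not select genes bright in 1 group alone.

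**Figure D1:**
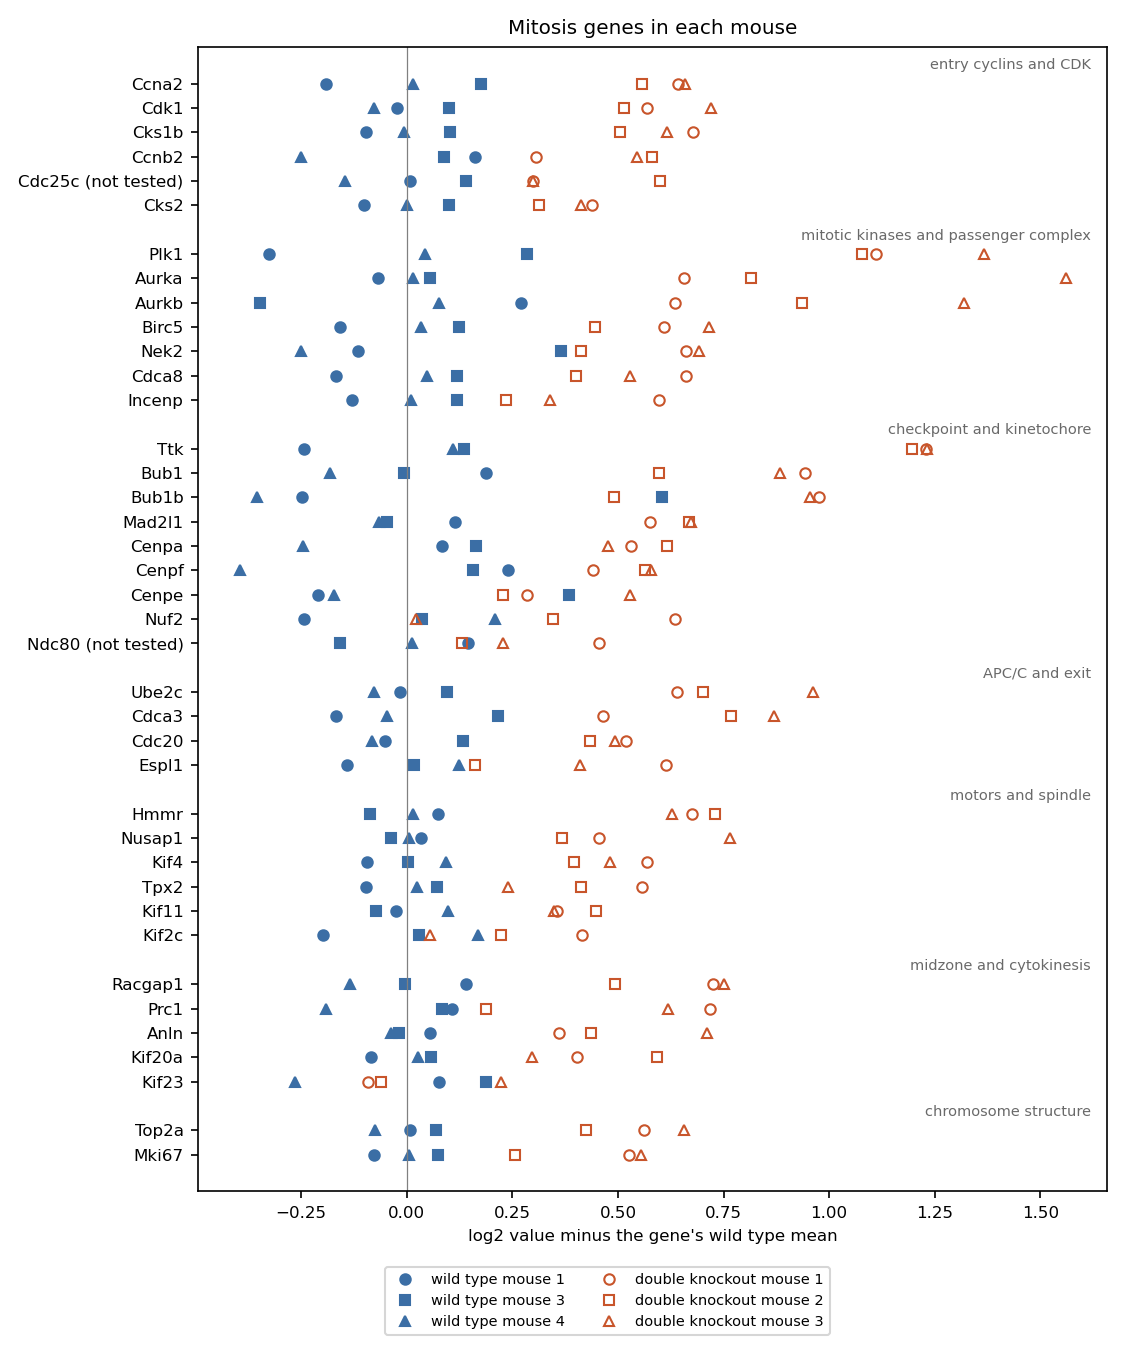
Log2 value of each mitosis gene in each mouse minus the gene's wild type mean (x axis), by role (rows); filled blue symbols are the 3 wild type mice and open orange symbols the 3 double knockout mice. Symbols of the groups do not overlap for 32 of the 37 tested genes, Ttk shows the widest gap, and those of Kif23 are mixed.

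The number of calls rested on every array. Without wild type mouse 1, 3 or 4 the limma fit left 1, 1 or 0 of the 37 called, and without double knockout mouse 1, 2 or 3 it left 1, 9 or 1, while the median fold change stayed between 0.50 and 0.61. Calls fell across the whole array in these fits: of all 18013 probe sets, 458 were higher with all mice, 27, 26 and 11 without wild type mouse 1, 3 or 4, and 103, 196 and 22 without double knockout mouse 1, 2 or 3. Averaged over the 37 genes, deviations from the wild type mean were -0.05, 0.10 and -0.05 in wild type mice 1, 3 and 4, and at 0.59, 0.50 and 0.65 in double knockout mice 1, 2 and 3. Wild type mouse 3 held the highest wild type value for 22 of the 37 genes, and double knockout mouse 2 the lowest of its group for 21.

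A measure of RNA quality moved with these averages. The 3′ minus 5′ difference of the Gapdh and b-actin control probe sets was 0.35, 0.49 and 0.36 in wild type mice 1, 3 and 4 and 0.60, 0.41 and 0.61 in double knockout mice 1, 2 and 3. Wild type mouse 3 was thus highest and double knockout mouse 2 lowest in their groups on both measures. The groups overlapped in this difference and its mean was 0.14 higher in double knockout mice (two-sided exact permutation test, p = 0.20; the smallest p that 20 splits allow is 0.10). With it as a covariate, the median fold change of the 37 genes was 0.46 and 36 were positive, but 0 were called higher or lower (lowest limma adjusted p = 0.107; 26 at an unadjusted p under 0.05). Over all 18013 probe sets, that fit called 5 higher and 12 lower, beside 458 and 347 without the covariate. Its share of all probe sets at an unadjusted p under 0.05 is not given, so the 26 have no background beside them.

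The promoters of these genes were examined because their transcription is known to share regulators. The cell cycle genes homology region (CHR), bound by the DREAM and MYB-MuvB complexes, and the CCAAT box, bound by NF-Y, are classic elements of late cell cycle promoters, and E2F-type elements those of S phase. RefSeq promoter sequences (GRCm38.p6) were found for 34 of the 40 genes. In the 250 bases before the gene start, on either strand, CCAAT occurred in 27 of 34 members (79.4%) and in 37.5% of the 27025 genes with a promoter sequence; it was also common in the related lists described below, at 62.5% of 32 S phase genes and 55.1% of 107 other mitosis genes. At least 2 matches were present in 18 members (52.9%) and in 11.5% of all genes. CHR motifs (TTTGAA or TTCGAA) occurred in 12 of 34 (35.3%), a share close to the 34.6% of other mitosis genes, beside 8 of 32 S phase genes and 19.6% of all genes. With the 50 bases after the start added, CHR rose to 26 of 34 (76.5%) against 47.7% of other mitosis genes, 8 of 32 S phase genes and 21.7% of all genes, so that many matches lie just past the start, while CCAAT stayed at 27. The E2F-type motifs TTCCCGC and TTGGCGC occurred in 3 of 34 (8.82%) against 6.45% of all genes, 24.3% of other mitosis genes and 28.1% of S phase genes. None of these shares was tested for a difference. Overlapping matches were all counted. Among the 13 called genes with a sequence, 11 held CCAAT before the start; the exceptions were Birc5 and Mad2l1, which held none of the motifs in either window. A match is a run of letters and not a site shown to be bound, and these data do not measure binding.

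The last 130 bases before the start are shown for the 5 called genes with the largest changes (Ttk, Plk1, Bub1, Ube2c and Hmmr), for the 3 called genes with at least 2 CHR matches before the start (Cdk1, Cks1b and Top2a), and for Kif23, the member with the smallest change. They lie at chr9:83834559-83834688 on the plus strand for Ttk, chr7:122159305-122159434 on the plus strand for Plk1, chr2:127831860-127831989 on the minus strand for Bub1, chr2:164769799-164769928 on the plus strand for Ube2c, chr11:40733438-40733567 on the minus strand for Hmmr, chr10:69352913-69353042 on the minus strand for Cdk1, chr3:89418292-89418421 on the minus strand for Cks1b, chr11:99024190-99024319 on the minus strand for Top2a and chr9:61946800-61946929 on the minus strand for Kif23. Capitals mark matches to CCAAT, CHR or E2F-type motifs on either strand (CCAAT reads as ATTGG and TTTGAA as TTCAAA on the other), and each run ends at the base before the gene start.
Ttk: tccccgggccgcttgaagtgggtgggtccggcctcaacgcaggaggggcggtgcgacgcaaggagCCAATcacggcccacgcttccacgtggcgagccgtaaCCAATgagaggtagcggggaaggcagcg
Plk1: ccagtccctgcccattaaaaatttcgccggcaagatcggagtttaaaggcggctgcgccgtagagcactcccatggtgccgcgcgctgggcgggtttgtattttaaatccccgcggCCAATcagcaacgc
Bub1: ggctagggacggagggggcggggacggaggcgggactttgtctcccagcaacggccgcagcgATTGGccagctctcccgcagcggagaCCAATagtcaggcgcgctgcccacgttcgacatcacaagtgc
Ube2c: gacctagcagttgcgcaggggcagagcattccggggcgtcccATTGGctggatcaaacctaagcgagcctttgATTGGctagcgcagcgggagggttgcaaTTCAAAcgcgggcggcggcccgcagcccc
Hmmr: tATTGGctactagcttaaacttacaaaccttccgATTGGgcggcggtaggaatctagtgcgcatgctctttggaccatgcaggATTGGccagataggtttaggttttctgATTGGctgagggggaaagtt
Cdk1: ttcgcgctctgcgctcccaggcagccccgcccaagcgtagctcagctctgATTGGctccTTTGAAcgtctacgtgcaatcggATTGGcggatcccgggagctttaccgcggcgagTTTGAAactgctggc
Cks1b: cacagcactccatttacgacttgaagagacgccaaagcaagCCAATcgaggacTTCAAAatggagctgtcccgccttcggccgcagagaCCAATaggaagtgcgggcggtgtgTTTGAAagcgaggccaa
Top2a: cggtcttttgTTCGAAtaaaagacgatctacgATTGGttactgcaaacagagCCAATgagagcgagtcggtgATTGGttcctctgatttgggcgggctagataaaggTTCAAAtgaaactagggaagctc
Kif23: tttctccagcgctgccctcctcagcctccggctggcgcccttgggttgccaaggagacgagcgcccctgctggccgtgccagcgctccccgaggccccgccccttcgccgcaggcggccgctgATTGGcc
Ube2c and Top2a each held 6 CCAAT matches in their 250 bases and Hmmr 5, some of which lie further from the start than the bases shown. Top2a held 4 CHR matches before the start, and Cdk1 and Cks1b 2 each. Ttk, Plk1, Bub1, Hmmr and Kif23 each held no CHR match before the start and 1 when the 50 bases after it were included. Kif23 and Plk1 thus held the same numbers of both elements, 1 CCAAT box and 1 CHR match. Whether motif counts go with the size of the change was not tested, and a single pair of genes cannot show it.

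**Figure D2:**
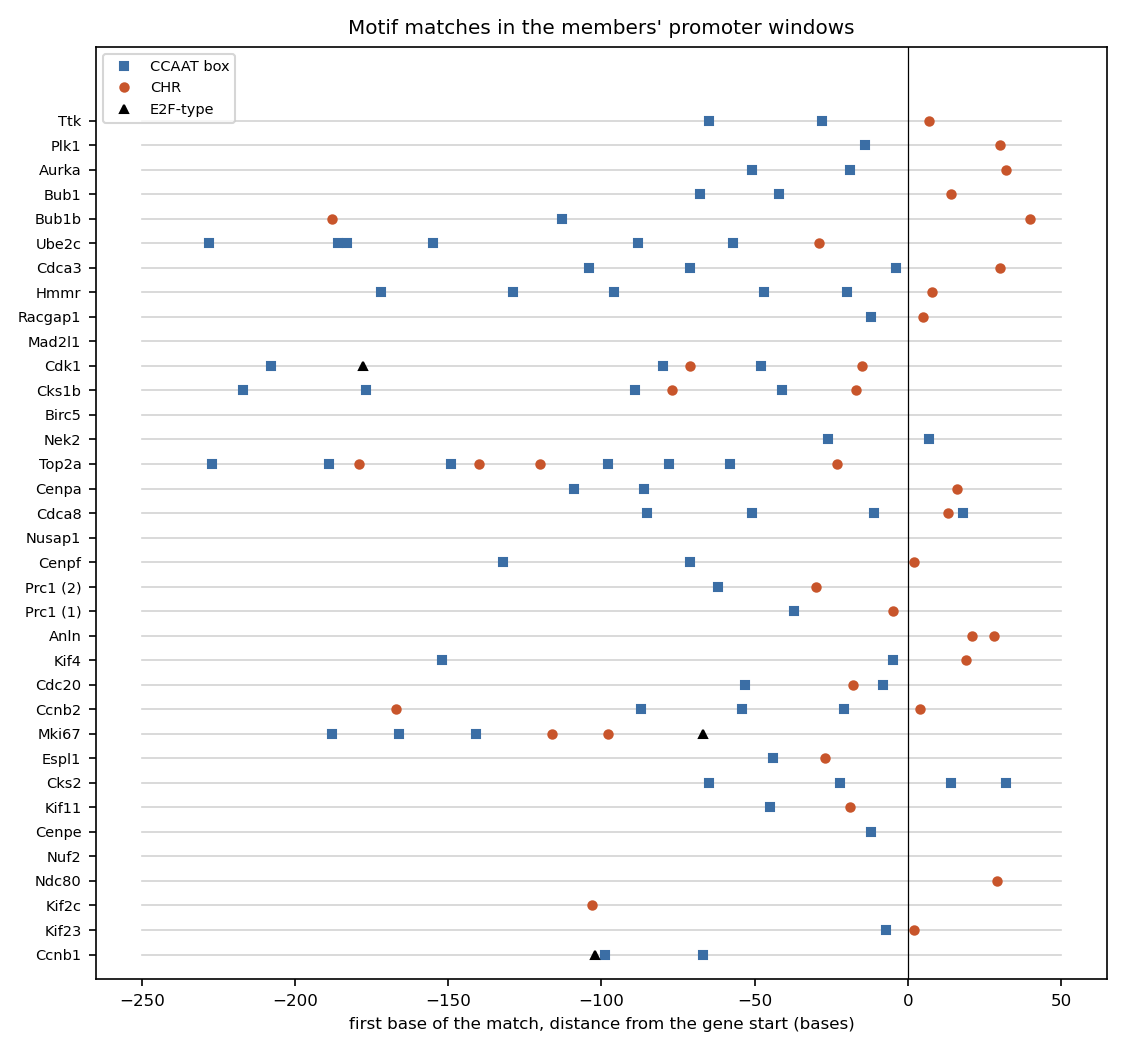
Motif matches in the promoter windows of 34 mitosis genes (rows, ordered by fold change with the largest at the top; Prc1 has 2 windows and Ccnb1, not measured, is last); the x axis is the distance of the first base of a match from the gene start in bases. CCAAT boxes (blue squares) lie almost wholly before the start, CHR matches (orange circles) crowd around it, and 6 genes have neither element before the start.

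Genes that bring cells into mitosis rose as a group of 3 among 5 tested: Ccna2, Cdk1 and Cks1b. Ccna2 (cyclin A2, the partner of CDKs from S phase to early mitosis) had log2 values of 8.52, 8.88 and 8.72 in wild type mice 1, 3 and 4 and 9.35, 9.27 and 9.37 in double knockout mice 1, 2 and 3. Its double knockout values lay close together (SD 0.05) and all above wild type, a log2 fold change of 0.62 ± 0.11 (SE; limma adjusted p = 0.0383). Cdk1, the kinase of mitotic entry, had 8.30, 8.42 and 8.24 in wild type and 8.89, 8.84 and 9.04 in double knockout mice (0.60 ± 0.10, limma adjusted p = 0.0295). Cks1b, a small subunit of cyclin-CDK complexes, had 9.61, 9.81 and 9.70 against 10.38, 10.21 and 10.32 (0.60 ± 0.09, limma adjusted p = 0.0282). The groups of all 3 genes were separated by about 0.4 on the log2 scale between their nearest mice.

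Its paralog Cks2 had a fold change of 0.39 ± 0.09 and Ccnb2 (cyclin B2) one of 0.48 ± 0.14, neither of which passed (limma adjusted p 0.0617 and 0.0941), although neither gene's groups overlapped. Cdc25c, a phosphatase that activates Cdk1, stayed under 4 on every array: 3.19, 3.33 and 3.04 in wild type and 3.49, 3.79 and 3.49 in double knockout mice. At such levels the background model decides much of the value, and no fold is given.

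Among the mitotic kinases and the chromosomal passenger complex, Plk1 and Birc5 rose, 2 of 7. Plk1, the polo-like kinase of spindle assembly and mitotic exit, had 6.12, 6.72 and 6.48 in wild type and 7.55, 7.52 and 7.81 in double knockout mice. The lowest double knockout mouse stood 0.79 above the highest wild type mouse, and the log2 fold change was 1.18 ± 0.17, or 2.27-fold (limma adjusted p = 0.0256). Birc5 (survivin), a passenger subunit, had 8.60, 8.88 and 8.79 against 9.37, 9.20 and 9.47 (0.59 ± 0.11, limma adjusted p = 0.0436).

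Aurka and Aurkb, the Aurora kinases of the spindle poles and of the passenger complex, had fold changes nearly as large as that of Plk1 but varied more between mice. Aurka had 5.56, 5.68 and 5.64 in wild type and 6.29, 6.45 and 7.19 in double knockout mice, so that double knockout mouse 3 stood apart from its group. The fold change was 1.01 ± 0.23 with a limma adjusted p of 0.0583, and 0.74 without that mouse. Aurkb had 6.38, 5.76 and 6.19 against 6.74, 7.05 and 7.43 (0.96 ± 0.22, limma adjusted p = 0.0594), again highest in double knockout mouse 3. Cdca8 (borealin, 0.53 ± 0.11), Incenp (the scaffold of the complex, 0.39 ± 0.12) and Nek2, a centrosome kinase (0.59 ± 0.18), did not pass (limma adjusted p 0.0544, 0.111 and 0.0989). The groups of all 7 genes of this class were separate, and for Nek2 only by 0.05.

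The spindle checkpoint and kinetochore class held the largest change of all members. Ttk (Mps1), the kinase that starts checkpoint signalling at unattached kinetochores, had 4.16, 4.54 and 4.52 in wild type and 5.63, 5.60 and 5.64 in double knockout mice. The double knockout mice were nearly equal (SD 0.02) and the nearest wild type mouse lay 1.06 below them. The log2 fold change was 1.22 ± 0.12, or 2.33-fold (limma adjusted p = 0.0111). The wild type values of Ttk, like those of Kif4 and Hmmr below, lay little above the filter level of 4. The background model weighs on such values, so the size of the change is less certain. A second Ttk probe set was too dim to test. Ttk remained called in 5 of 6 fits that left out 1 mouse and missed the threshold without wild type mouse 4, and its fold change lay between 1.10 and 1.29 in these fits. It lies on the chromosome that carries Ifrd2, as do Ccnb2, Kif23 and Anln, but none of the 4 within 10 Mb of it.

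Bub1, a kinase that recruits checkpoint proteins, had 6.57, 6.38 and 6.20 against 7.33, 6.98 and 7.27 (0.81 ± 0.14, limma adjusted p = 0.0330). Mad2l1, the checkpoint protein that holds back Cdc20, had 8.54, 8.38 and 8.36 against 9.0, 9.10 and 9.10 (0.64 ± 0.09, limma adjusted p = 0.0238). With Ttk, these made 3 calls among 8 tested genes of the class. Bub1b (BubR1), with a fold change as large as that of Bub1, had 4.87, 5.72 and 4.76 in wild type and 6.09, 5.61 and 6.07 in double knockout mice. Wild type mouse 3 lay inside the double knockout range, and the change did not pass (0.81 ± 0.27, limma adjusted p = 0.127). Bub1, Bub1b and Nusap1 lie within 10 Mb of Tmem87a, a gene that was singled out after its values in this series were known and whose values are not given here. Without the 3 genes, 13 of 34 were called and the median fold change was 0.53.

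Structural kinetochore genes changed less clearly. Cenpa, the histone variant that marks centromeres, stood at 0.54 ± 0.13 (limma adjusted p = 0.0605) with separate groups, and Cenpf at 0.53 ± 0.17 (limma adjusted p = 0.119). The kinetochore motor Cenpe (0.35, 95% interval -0.08 to 0.78) and the NDC80 complex subunit Nuf2 (0.33, 95% interval -0.11 to 0.78) had groups that overlapped and intervals that include both no change and a rise. Ndc80 itself was at the edge of the scale, with 3.92, 3.62 and 3.79 in wild type and 4.23, 3.90 and 4.00 in double knockout mice, and was not tested.

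Of the genes that act through the anaphase-promoting complex, Ube2c and Cdc20 rose, 2 of 4. Ube2c, the ubiquitin-conjugating enzyme that primes its substrates, had 9.53, 9.64 and 9.46 in wild type and 10.18, 10.24 and 10.50 in double knockout mice (0.77 ± 0.11, 1.70-fold, limma adjusted p = 0.0263). Cdc20, the activator that brings substrates to the complex at anaphase, had 9.58, 9.76 and 9.55 against 10.15, 10.06 and 10.12 (0.48 ± 0.09, limma adjusted p = 0.0418). In both genes the mice of a group lay close together and the groups were apart by at least 0.30. Cdca3, a trigger of mitotic entry through Wee1 degradation, stood at 0.70 ± 0.15 and just missed the threshold (limma adjusted p = 0.0517). Espl1 (separase), the protease that cuts cohesin, stood at 0.39 ± 0.14 (limma adjusted p = 0.135) and its groups were apart by 0.04.

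Among spindle motors and microtubule-associated factors, Kif4 and Hmmr rose, 2 of 6. Kif4, a chromosome-bound kinesin, had 4.41, 4.51 and 4.60 in wild type and 5.07, 4.90 and 4.99 in double knockout mice (0.48 ± 0.09, limma adjusted p = 0.0423). Hmmr, a spindle assembly factor, had 4.70, 4.54 and 4.64 against 5.30, 5.36 and 5.26 (0.68 ± 0.08, limma adjusted p = 0.0189). The SD of Hmmr was 0.08 in wild type and 0.05 in double knockout mice, and the groups lay 0.55 apart. Kif11 (Eg5, which pushes the spindle poles apart; 0.38 ± 0.09), Nusap1 (0.53 ± 0.12) and Tpx2, the activator of Aurora A (0.40 ± 0.11), did not pass, with limma adjusted p of 0.0575, 0.0578 and 0.0817. Kif2c, a kinesin that takes microtubules apart at centromeres, had overlapping groups and stood at 0.23, with a 95% interval of -0.10 to 0.56.

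In the class of midzone and cytokinesis genes, Racgap1 rose, 1 of 5. Racgap1, a GTPase-activating subunit of centralspindlin, had 6.45, 6.30 and 6.17 in wild type and 7.03, 6.80 and 7.06 in double knockout mice (0.66 ± 0.11, limma adjusted p = 0.0344). Its kinesin partner in the same complex, Kif23, had 6.61, 6.72 and 6.26 against 6.44, 6.47 and 6.75. The groups of Kif23 overlapped throughout, and its fold change of 0.02 (95% interval -0.33 to 0.38) was the smallest of all members and turned negative in 5 of 17 alternatives. Whether the fold changes of Racgap1 and Kif23 differ was not tested. Anln, an actin-binding protein of the contractile ring (0.50 ± 0.11), Kif20a (0.43 ± 0.10) and the midzone bundling protein Prc1 (0.51 ± 0.16) had separate groups but did not pass, with limma adjusted p-values of 0.0570, 0.0661 and 0.114.

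Top2a, the topoisomerase that untangles sister chromatids, had 8.86, 8.92 and 8.78 in wild type and 9.42, 9.28 and 9.51 in double knockout mice (0.55 ± 0.10, limma adjusted p = 0.0344). Mki67, the common marker of cycling cells, had 9.56, 9.71 and 9.65 against 10.17, 9.90 and 10.20. It was higher in 3 of 3 double knockout mice, but its fold change of 0.45 ± 0.11 did not pass (limma adjusted p = 0.0674).

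**Figure D3:**
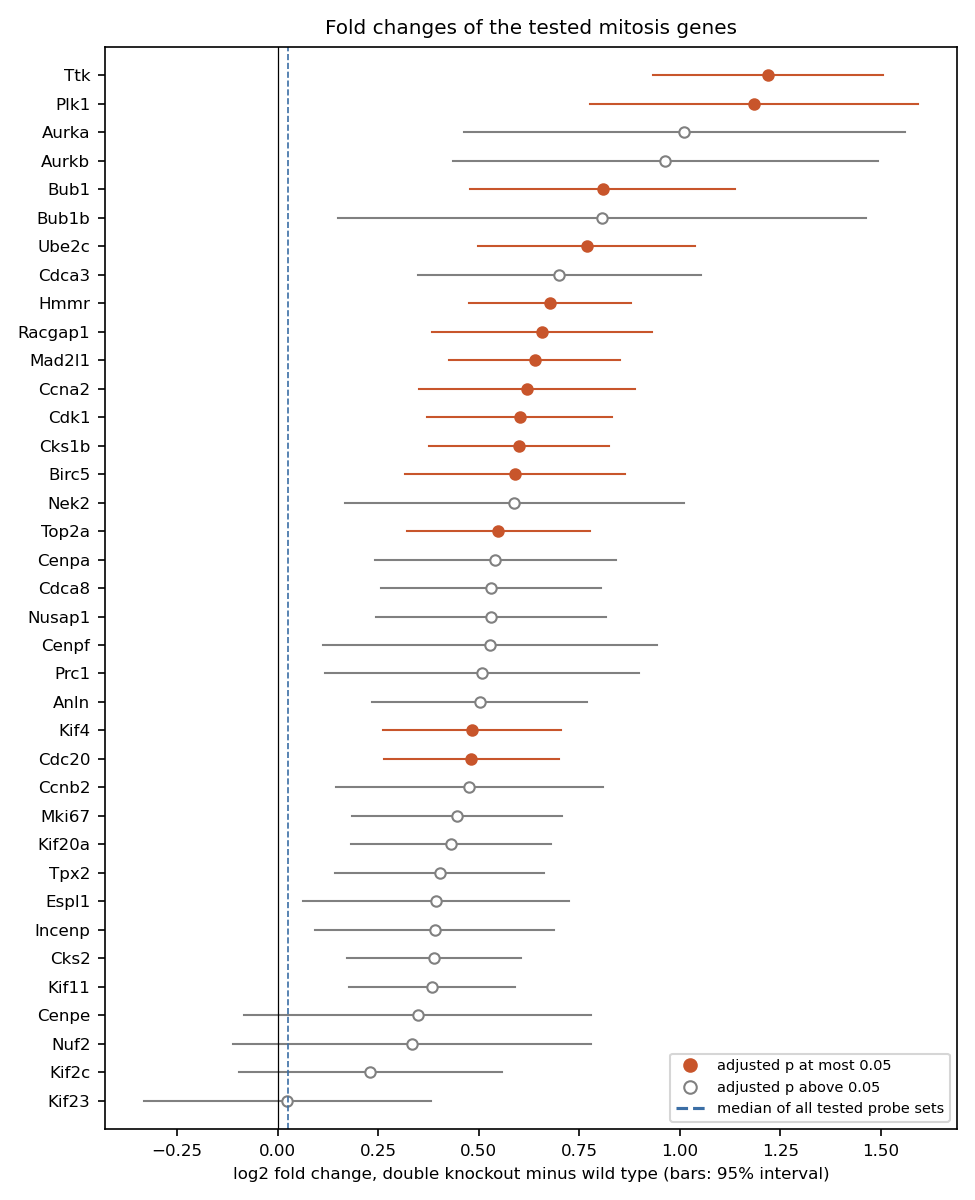
Log2 fold change (x axis, double knockout minus wild type) with its 95% interval for the 37 tested mitosis genes, each from 3 against 3 mice; filled orange points passed the threshold over all probe sets tested and open grey points did not. All points lie to the right of 0, from Kif23 at 0.02 to Ttk at 1.22, and 33 intervals exclude 0.

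A further 49 probe sets belong to the same genes, of which 18 in 16 genes were bright enough to test. Of these, 9 rose, 0 fell and 9 did not pass, and 17 of 18 had a positive fold change. For 5 genes whose brightest probe set did not pass, another one did: Aurkb (0.63 ± 0.10), Cks2 (0.45 ± 0.08), Incenp (0.70 ± 0.09), Prc1 (0.64 ± 0.12) and Cdca8 on both of its others (0.58 ± 0.10 and 0.92 ± 0.14). The limma adjusted p was lowest for Incenp (0.0222) and highest for Prc1 (0.0423). Cdc20 passed on its brightest probe set but on neither of the others tested (0.72 ± 0.15 and 0.37 ± 0.08, limma adjusted p 0.0530 and 0.0521). The last of these was above 4 only in double knockout mice. Counting any probe set, 19 genes had at least 1 that rose. Probe sets of a gene share the mouse and the transcript, so they are no added replicates.

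Sizes differed between probe sets of a gene. For Cks1b the second probe set had 5.55, 6.18 and 5.66 in wild type and 6.90, 7.36 and 7.51 in double knockout mice, a log2 fold change of 1.46 ± 0.22 beside 0.60 on the brighter one (limma adjusted p = 0.0268). In 11 of the 18 the fold change exceeded that of the gene's brightest probe set. Top2a went the other way, with 0.10 ± 0.10 on a dimmer probe set (limma adjusted p = 0.565). Cenpa had the only negative one: 4.74, 4.97 and 4.79 in wild type and 4.06, 4.11 and 1.86 in double knockout mice (-1.49 ± 0.58, limma adjusted p = 0.162). All 3 double knockout values lay below wild type there, with double knockout mouse 3 far under the others. Which transcript forms each probe set detects was not tested.

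**Figure D4:**
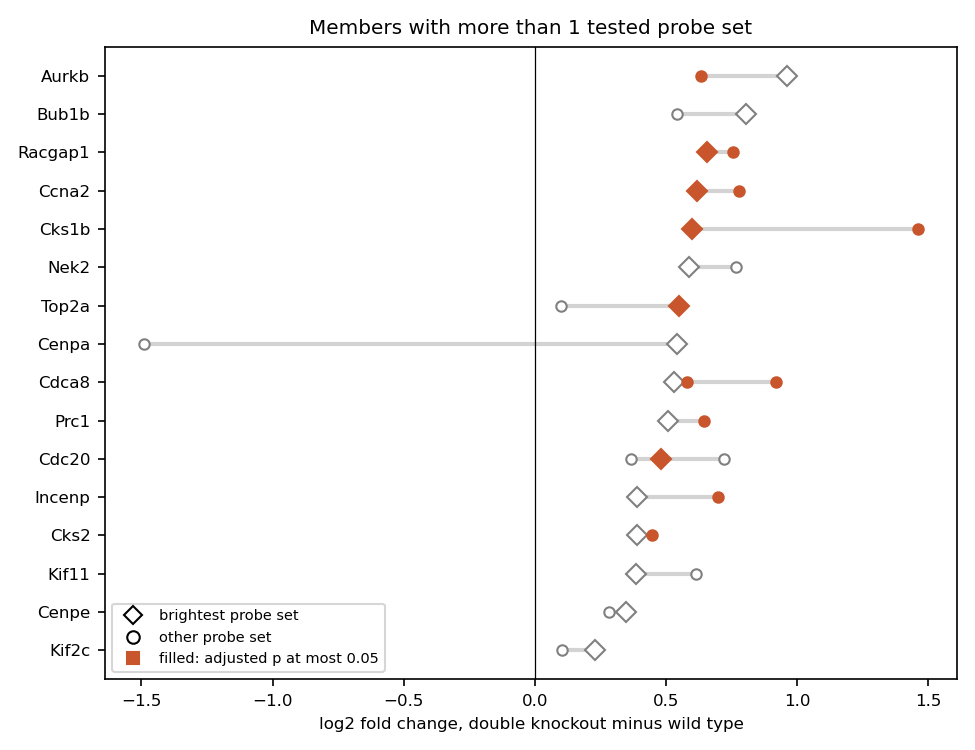
Log2 fold changes (x axis) of the 16 mitosis genes with more than 1 tested probe set; diamonds are the brightest probe set of each gene, circles the others, and filled orange symbols passed the threshold. Cks1b has the widest spread to the right (0.60 and 1.46), and the Cenpa probe set at -1.49 is the only one left of 0.

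Other genes of mitosis were taken from 5 lists written from general knowledge. Of 127 symbols 124 matched and 97 were tested; 16 rose, 1 fell and 80 did not pass, with 86 positive fold changes and a median of 0.28. Kinetochore and centromere genes had 5 of 23 higher and 0 lower (median 0.36), among them Cenpk (1.09 ± 0.15), Cenpw (0.71 ± 0.11), Spc24, a subunit of the NDC80 complex (0.79 ± 0.13), and Spdl1, which loads dynein at kinetochores (0.65 ± 0.12). Limma adjusted p-values of these 4 ran from 0.0223 to 0.0415. Further motors and spindle genes had 5 of 25 higher and 1 lower (median 0.42), including the tubulin Tubb5 (0.72 ± 0.09), the minus-end kinesin Kifc1 (0.59 ± 0.08) and citron kinase, Cit (0.71 ± 0.11), with limma adjusted p at 0.0190, 0.0228 and 0.0302. The gene that fell was Haus2, a subunit of the augmin complex that branches spindle microtubules. It had 7.83, 7.51 and 7.56 in wild type and 6.89, 6.88 and 6.79 in double knockout mice (-0.78 ± 0.11, limma adjusted p = 0.0252), and it lies within 10 Mb of Tmem87a. Another augmin subunit, Haus1, rose by 0.61 ± 0.11 (limma adjusted p = 0.0370).

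Of the remaining mitotic lists, kinases and regulators had 3 of 14 higher and 0 lower (median 0.34). These were Pbk, a mitotic kinase (0.79 ± 0.11), the Cdk1-activating phosphatase Cdc25b (0.69 ± 0.12) and Cdca2, a phosphatase-targeting subunit (1.00 ± 0.20), with limma adjusted p of 0.0223, 0.0344 and 0.0464. Condensin and cohesin genes had 2 of 18 higher, Smc2 (0.56 ± 0.08) and Ncapg (0.63 ± 0.10), and 0 lower (median 0.26; limma adjusted p 0.0255 and 0.0310). The anaphase-promoting complex and its regulators had the smallest median of the 5 lists, 0.14. Only Ube2s, the enzyme that extends ubiquitin chains on its substrates, rose among its 17 genes and 0 fell (0.51 ± 0.08, limma adjusted p = 0.0277; 5 higher and 0 lower at an unadjusted p under 0.05). Foxm1 and Mybl2, transcription factors of late cell cycle genes, were too dim to test, and the MuvB core subunits Lin9, Lin37 and Lin54 stood at 0.08 ± 0.16, -0.18 ± 0.11 and -0.20 ± 0.10 and did not pass (limma adjusted p 0.755, 0.348 and 0.249).

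Replication and S phase genes had 5 of 35 higher and 0 lower, with a median log2 fold change of 0.39. The 5 were Pold2, Pole, Mcm5, Rrm1 and Gins2 (0.43 to 0.79 on the log2 scale, limma adjusted p 0.0255 to 0.0499). A mixed list of G1 genes held cyclins and CDK inhibitors, and also CDKs and genes of the retinoblastoma and E2F families. It differed from this pattern in its median, which was -0.10: 0 of 20 rose and 1 fell (limma), with 7 higher and 7 lower at an unadjusted p under 0.05. Activators and inhibitors of the cell cycle are pooled in that median, so it does not describe the G1 cyclins alone. The gene that fell was Cdkn1c (p57), a CDK inhibitor, with 5.04, 5.27 and 4.91 in wild type and 4.11, 4.50 and 4.42 in double knockout mice (-0.73 ± 0.14, limma adjusted p = 0.0443).

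Markers of the cells that could carry mitotic transcripts were compared in the same way. Of 12 tested crypt stem cell markers, 0 rose and 0 fell (limma; 4 higher and 1 lower at an unadjusted p under 0.05), with a median of 0.21. Their list mean lay between 7.54 and 7.75 in wild type and between 7.58 and 7.92 in double knockout mice, so the groups overlapped. Lgr5, a stem cell receptor, had 5.76, 5.23 and 5.04 against 4.74, 6.27 and 5.32 (0.10 ± 0.39, limma adjusted p = 0.892). Olfm4 stood at 0.19 ± 0.14 (limma adjusted p = 0.424). Ascl2, a stem cell transcription factor, had 4.61, 4.54 and 4.69 against 5.01, 5.47 and 5.80, higher in 3 of 3 double knockout mice, but did not pass (0.81 ± 0.19, limma adjusted p = 0.0646). Rnf43 went the other way, with 6.77, 6.59 and 6.73 against 5.77, 6.35 and 6.27, and did not pass either (-0.57 ± 0.16, limma adjusted p = 0.0925). Groups were separate upward for 3 of the 12 markers and downward for 1, beside 19.5% and 14.8% of all probe sets tested. Enterocyte markers had 0 of 15 called (0 higher and 3 lower at an unadjusted p under 0.05) and a median of -0.11. Their summed linear level lay between 159621 and 164341 in wild type and between 147647 and 152345 in double knockout mice, so that every double knockout mouse was lower. The part of these cell types in the mitosis gene differences was not tested.

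Germinal centres, the sites of B cell division in gut lymphoid tissue, are another source of mitotic RNA. The groups overlapped in B cell and germinal centre markers: the mean of the 4 tested markers was 6.78, 3.99 and 6.74 in wild type mice 1, 3 and 4 and 7.25, 4.47 and 4.23 in double knockout mice 1, 2 and 3. Ms4a1 (CD20) was at 7.44, 1.57 and 7.56 against 8.27, 2.58 and 1.90, and 7 of 11 matched markers were too dim to test. The summed linear level of the 11 markers ran from 277 to 683 in wild type and from 216 to 862 in double knockout mice. Where Ms4a1 was low, this sum rests largely on Bcl6, which had 7.53, 7.78 and 8.22 against 8.03, 7.24 and 7.14. In wild type mouse 3 Bcl6 was thus not low along with Ms4a1. These values are no measure of germinal centres alone. T cell markers (7 tested, median 0.18), macrophage and dendritic cell markers (6, median 0.35) and fibroblast markers (11, median 0.48) had 0 calls each by limma, with 1, 0 and 2 higher and 0, 0 and 1 lower at an unadjusted p under 0.05. Fibroblast list means of 8.01 to 8.57 in wild type overlapped with 8.48 to 9.0 in double knockout mice. Plasma cell markers had 0 of 6 called by limma (1 higher and 0 lower at an unadjusted p under 0.05) and a median of 0.17, with all 6 positive. Their list mean lay between 8.31 and 8.59 in wild type and between 8.60 and 8.74 in double knockout mice, and the summed level of the 8 matched markers between 10636 and 12266 against 12636 and 13362. The groups were thus separate, for the list mean only just. Of the 6 tested markers only 1, Mzb1, had separate groups, and those of the brightest marker, which weighs most in the sum, overlapped. Tuft cell markers were separate in the other direction, with a list mean of 5.45 to 5.79 in wild type and 4.74 to 5.24 in double knockout mice over 3 tested markers (median -0.55), and a summed level of 221 to 276 against 137 to 170. Both measures rest largely on Rgs13, the brightest and most changed of the list. Only 2 of the 3 tested markers had separate groups, and 6 of 9 matched markers were too dim to test. The part of these cells in the mitosis gene differences was not tested either. The only marker of any list to pass was Rgs13, which tuft cells express, and it fell (-1.0 ± 0.17, limma adjusted p = 0.0321).

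**Figure D5:**
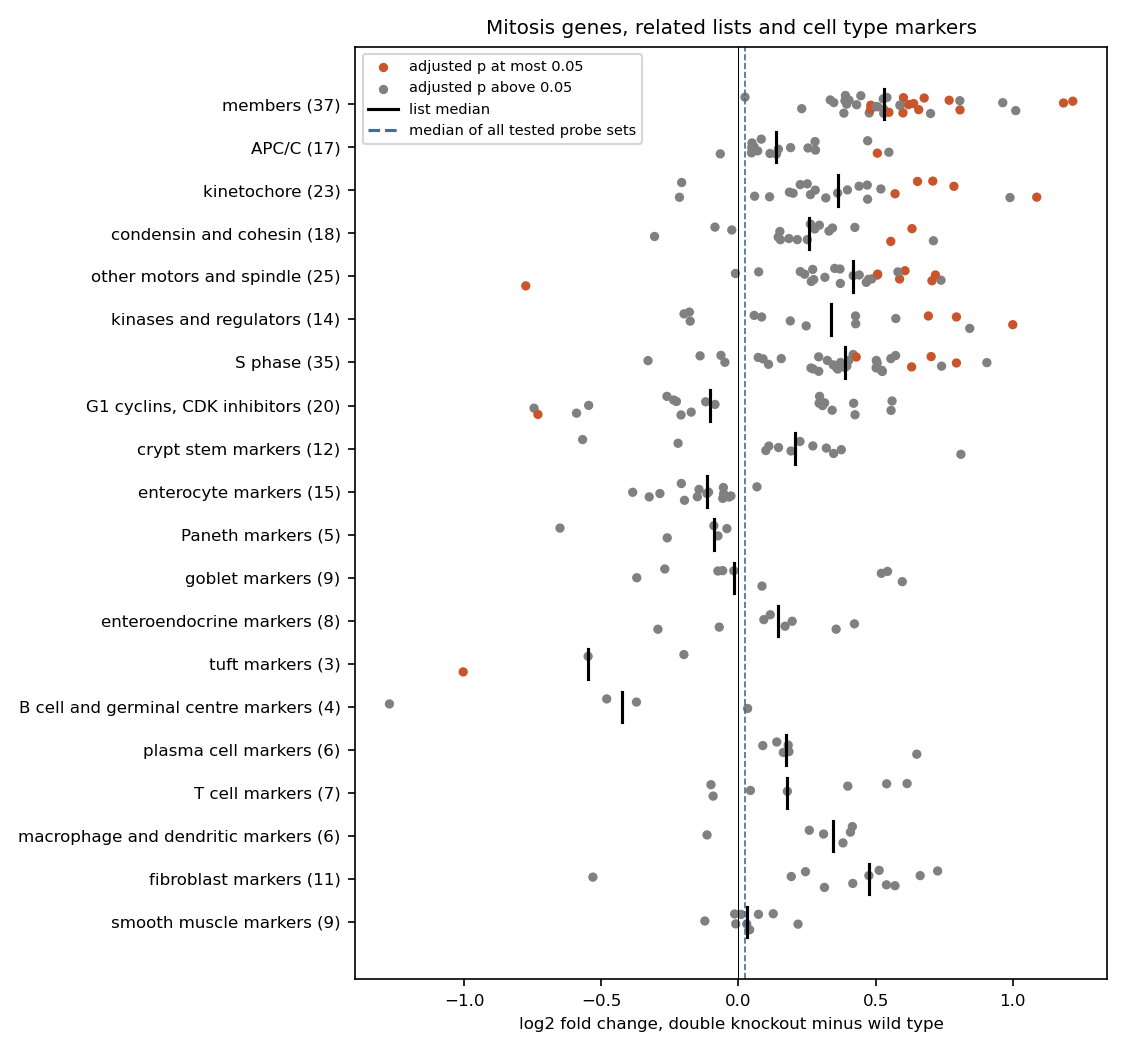
Log2 fold changes (x axis, double knockout minus wild type) of the tested mitosis genes, 7 lists of related cell cycle genes and 12 lists of cell type markers (rows, with the number of genes tested); black bars are list medians, orange points passed the threshold, and the dashed line is the median of all tested probe sets. The members have the highest median, 0.53, followed by the fibroblast markers at 0.48. Medians of the other mitosis lists lie between 0.14 and 0.42. Genes of the row labelled G1 cyclins, CDK inhibitors, which also holds CDKs and retinoblastoma and E2F family genes, lie on both sides of 0.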

How the data were processed

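The authors deposited log2 expression values, 1 per probe set and array, produced by GCRMA (version 2.18.0 per the submitters' processing notes; its settings were not analysed here). GCRMA corrects background by probe base composition and normalises between arrays, so low values carry little information. The number of arrays limits the precision. The labels name separate mice, and no array copied another (within each pair, 62.5% or more of the probe sets moved by over 0.1).

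Gene symbols came from the platform annotation and were updated through the GRCm38.p6 gene table. Of 45101, 64 control probe sets were removed and probe sets exceeding 4 (log2) on 3 or more arrays were kept, 18013 in all. Double knockout minus wild type was fitted in R 4.3.3 by limma 3.58.1 (lmFit, eBayes, no covariates, two-sided), with Benjamini-Hochberg adjustment over all 18013 at 0.05. Fold changes carry their standard errors. In simulated data of 18013 probe sets, the fit recovered 13.4% of changes of 0.5 on the log2 scale, 65.7% of those of 1 and 93.9% of those of 2. The simulation gave 119 calls in all, beside 458 higher and 347 lower in the data. With fewer calls the adjustment asks for a smaller p, so these rates cannot be carried over to the data.

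The members, the lists of related genes and markers, and the motifs were chosen with earlier results of these data known. Every member with a probe set is named; of the lists, up to 4 genes that passed by smallest p, or up to 2 where none did, are eligible, with Lgr5, Olfm4 and Ascl2; not every eligible gene is printed. Haus1, Gins2, Ms4a1, Foxm1, Mybl2, Tmem87a and the MuvB subunits lie outside the rule and were named after their values were seen. Alternatives covered filter, normalization, floor, variance prior, array weights, RNA quality, mouse number, probe set choice, promoter window and each mouse; leaving out the 3 members near Tmem87a was added after the data were seen. Figures were drawn with matplotlib 3.10.9.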

Additional observations from a re-analysis of the deposited data

How the results depend on the processing

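The members tested (37, but 29 with the stricter filter and 39 without a filter) had a median log2 fold change between 0.46 and 0.61 in all alternatives (0.50 to 0.61 with 1 mouse left out), the highest without double knockout mouse 2, and 0 were called lower in any. The number called higher was 14; it was 8 of 39 with dim probe sets kept (265 of all 45037 higher), 22 with a variance trend (918 of 18013), 25 with the mean of each gene's probe sets (522 of 9674 genes), beside 458 of 18013 in the fit reported, and 0 to 9 with 1 mouse left out. It was 0 with the 3′ to 5′ covariate and 0 with mouse number as a replicate block (5 and 2 of all 18013 higher); mice sharing a number share only that, with correlations of their deviations of 0.02 and 0.30, and wild type mouse 4 and double knockout mouse 2 have no partner. The 16 other mitosis genes called higher and 1 lower, the 5 S phase genes higher and the 1 G1 gene lower also became 0 with the covariate and 0 with the block; leaving out 1 mouse gave 0 to 10, 0, 0 to 1 and 0. Without the filter 3 S phase genes were higher and 0 G1 genes lower. Kif23 turned to -0.014 after quantile normalization, -0.12 with the covariate and -0.066 with the block, and ranged from -0.11 (without wild type mouse 4) through -0.076 (without double knockout mouse 3) to 0.12 (without wild type mouse 3), and Cenpa to -0.48 with the mean of its probe sets; the latter averages in its dim negative probe set, and the cause was not tested for the others. CHR matches rose from 12 to 26 genes with the 50 bases after the start included. Changes near 0.5, where most members lie, were mostly missed in simulated data. That simulation gave 119 calls beside 458 higher and 347 lower here, so its rate cannot be carried over to the members.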
